A study of Mus musculus with 16 samples.

Results

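Retinoic acid is made from vitamin A in 2 oxidation steps, is broken down by a dedicated group of enzymes, and is carried inside the cell by small binding proteins. The 9 genes described here were chosen by name for these roles, out of 53711 genes in the table: *Rdh10*, *Dhrs3*, *Aldh1a1*, *Aldh1a2*, *Aldh1a3*, *Cyp26a1*, *Cyp26b1*, *Crabp1* and *Crabp2*. All 9 were found. They were followed in 16 RNA-seq libraries of the embryonic mouse stomach. Fibroblasts had been taken from the prospective glandular (distal) and squamous (proximal) regions, and epithelium had been divided by the reporter fluorescence described below.

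All embryos carried the Sox2-EGFP and Gata4-td Tomato reporter alleles, which mark cells by the activity of *Sox2* and *Gata4*, on a mixed background of C57BL/6 and 129 strains. EpCAM-positive epithelial cells were divided by reporter fluorescence into Gata4hi, Sox2midGata4mid and Sox2hi cells at E13.5 (3, 2 and 3 libraries), and into Gata4hi and Sox2hi cells at E11.5 (1 library each). PDGFRα-positive fibroblasts were taken from the distal and the proximal stomach at the same E13.5 stage and also at E15.5, with E17.5 as the last (1 library each). The fractions are defined by reporter level and not by dissection, and nothing in the sources says which embryos or litters gave which library, so p-values measure the spread between these libraries, which may be technical. In fits of fibroblasts by region or stage, the spread is the departure from an equal regional difference at every stage.

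The sorted compartments and reporter fractions were checked against their defining genes. *Pdgfra* was at 139 FPKM (fragments counted per unit of transcript length and of library size) or more in the 6 fibroblast libraries and at most 2.65 FPKM in the 10 epithelial libraries, whereas *Epcam* was at most 4.95 FPKM in fibroblasts and at 200 to 263 FPKM in epithelium. *Gata4* was at 157 to 199 FPKM in Gata4hi, 39.95 and 84.4 FPKM in Sox2midGata4mid and 3.21 to 7.26 FPKM in Sox2hi cells at E13.5, and *Sox2* was at 49.9 to 61.2 FPKM in Gata4hi, 73.3 and 73.8 FPKM in Sox2midGata4mid and 85.7 to 94.1 FPKM in Sox2hi cells, so neither gene overlapped between fractions. The labels distal and proximal of the fibroblasts were not checked against a marker. The relative depth, read from the lowest values, ranged between 0.393 and 1.07 of that of Sox2hi replicate 1 at E13.5. The E11.5 Sox2hi library also held transcripts of liver (*Alb* 29.9 FPKM, *Afp* 65.5 FPKM) and lung (*Nkx2-1* 3.89 FPKM), and the E11.5 Gata4hi library held embryonic globin (*Hbb-y* 34.7 FPKM).

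Retinol is oxidised to retinal by retinol dehydrogenase 10 (RDH10), and DHRS3 reduces retinal back to retinol. The retinaldehyde dehydrogenases ALDH1A1, ALDH1A2 and ALDH1A3 then oxidise retinal to retinoic acid, which binds nuclear receptors (RAR) paired with RXR on DNA. CYP26 enzymes hydroxylate retinoic acid and so end the signal, CRABP2 hands it to the receptors, and CRABP1 holds it in the cytoplasm. In the developing gut, ALDH1A2 made by mesenchyme is the best known source, and the signal patterns the foregut along its length.

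*Cyp26a1* and the receptor gene *Rarb* are classical direct targets, so their upstream sequence is shown. The RefSeq promoter windows (GRCm38.p6, 250 bases before to 50 bases after the gene start) covered 6 of the 9 genes; *Aldh1a3*, *Rdh10* and *Crabp2* had none. The windows were searched on both strands for 2 half-sites in the same direction, each of them AGGTCA or else AGTTCA or else GGGTCA or else GGTTCA, with 5 bases between them. Such a repeat was found in 32 of 32851 windows (0.0974%). Among the 9 genes only the *Cyp26a1* window held it, 15 bases before the gene start and on the opposite strand, and in *Rarb* it lay 36 bases before the start on the gene's own strand. The stretches below run 5′ to 3′ on the gene's strand, with the repeat in capitals.
Cyp26a1, chr19:37697736-37697807, plus strand: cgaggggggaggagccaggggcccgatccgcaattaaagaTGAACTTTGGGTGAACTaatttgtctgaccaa
Rarb, chr14:16575477-16575569, minus strand: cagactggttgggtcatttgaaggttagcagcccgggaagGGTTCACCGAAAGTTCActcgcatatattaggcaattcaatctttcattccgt
Read on the opposite strand, the *Cyp26a1* repeat is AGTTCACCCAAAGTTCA, close to the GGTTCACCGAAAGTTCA of *Rarb*. A match of letters describes the sequence and does not show that a receptor binds there.

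**Figure D1:**
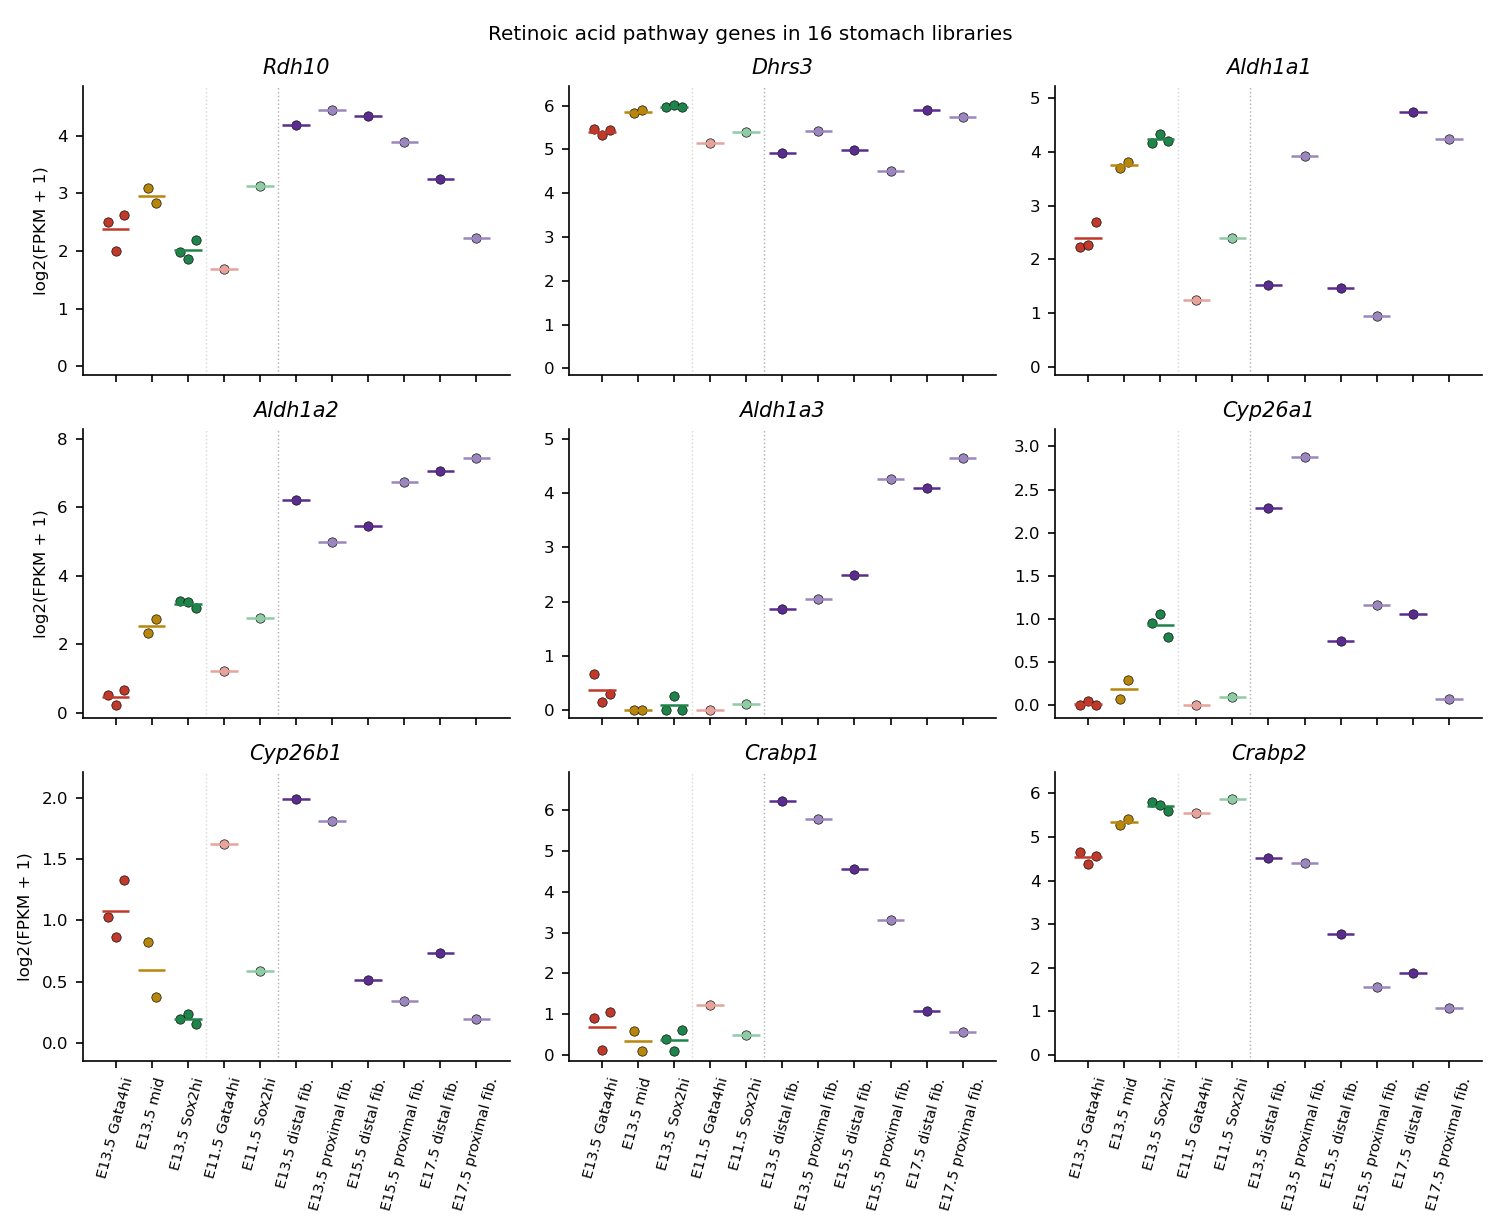
Level of each of the 9 genes, as log2(FPKM + 1), in every library (points), with the group mean as a line. Epithelial groups stand on the left (mid, Sox2midGata4mid) and fibroblasts by stage on the right. *Aldh1a2* and *Crabp1* are highest in fibroblasts, *Aldh1a2*, *Aldh1a1* and *Crabp2* step down toward Gata4hi cells in the E13.5 epithelium, and *Crabp1* and *Crabp2* are low in fibroblasts at E17.5.

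In the E13.5 epithelium, Gata4hi cells had less transcript of *Aldh1a1*, *Aldh1a2*, *Dhrs3* and *Crabp2* than Sox2hi cells. Differences were tested with limma on log2(FPKM + 1) for genes that averaged 1 FPKM or more, and those with a Benjamini-Hochberg adjusted p below 0.05 are referred to as called. Of the 9 genes 5 passed the filter, and 4 of these fell and none rose in Gata4hi relative to Sox2hi cells, where 21.6% of all 13127 genes tested were called, 14.9% higher and 6.7% lower. Of the 4 genes *Aldh1a2* averaged 0.399 FPKM in Gata4hi cells. It passed the filter only through the other groups, so no direction but lower was open to it. This bears on the count and on the median that follows. The median difference was -1.18 over the 5 genes and 0.08 over all genes tested, and on the scale of a fixed sum per library (TPM) the median of all genes moved to -0.05.

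*Aldh1a2* (chr9:71215789-71296243, plus strand) had the widest gap. It was at 0.437, 0.179 and 0.580 FPKM in Gata4hi cells, at 4.06 and 5.73 FPKM in Sox2midGata4mid cells, and at 8.69, 8.36 and 7.35 FPKM in Sox2hi cells. The 3 groups did not overlap, and Sox2midGata4mid cells lay between the other two. The difference between Gata4hi and Sox2hi cells was -2.71 ± 0.18 on the log2(FPKM + 1) scale (SE; limma adjusted p = 5.32e-05), and with a pseudocount of 0.1 it was -4.14. Gata4hi cells were also lower than Sox2midGata4mid cells (-2.07 ± 0.20, adjusted p = 0.00195).

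*Aldh1a1* (chr19:20492715-20643462, plus strand), the more abundant of these enzymes in the E13.5 epithelium, followed the same order. Its levels were 3.72, 3.83 and 5.49 FPKM in Gata4hi cells, 12.01 and 13.1 FPKM in Sox2midGata4mid cells, and 17.1, 19.2 and 17.4 FPKM in Sox2hi cells. No library crossed into a neighbouring group. The difference was -1.83 ± 0.14 between Gata4hi and Sox2hi cells (adjusted p = 1.04e-04) and -1.36 ± 0.16 between Gata4hi and Sox2midGata4mid cells (adjusted p = 0.00315).

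*Aldh1a3* (chr7:66390890-66427517, minus strand) was nearly silent in all epithelium. It was at 0.593, 0.104 and 0.225 FPKM in Gata4hi cells, was listed at 0 in both Sox2midGata4mid libraries, and was at 0, 0.1998 and 0 FPKM in Sox2hi cells. Summed over the 3 enzymes, FPKM came to between 4.11 and 6.29 in Gata4hi cells, to 16.1 and 18.8 in Sox2midGata4mid cells, and to between 24.7 and 27.8 in Sox2hi cells. *Aldh1a1* made up 78.3% to 93.1% of this sum in Gata4hi cells and 66.3% to 70.3% in Sox2hi cells, and *Aldh1a2* made up 4.35% to 9.22% in Gata4hi cells and 29.7% to 33.7% in Sox2hi cells.

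Of the retinol and retinal enzymes, *Dhrs3* (chr4:144892827-144928209, plus strand) was the most abundant of all 9 genes in E13.5 epithelium. It was at 43.0, 39.3 and 42.3 FPKM in Gata4hi cells, at 55.7 and 58.3 FPKM in Sox2midGata4mid cells, and at 61.3, 63.4 and 61.3 FPKM in Sox2hi cells. The Gata4hi libraries were below all others. The difference was small beside those of the synthesizing enzymes, at -0.57 ± 0.07 against Sox2hi cells (adjusted p = 8.15e-04) and -0.45 ± 0.08 against Sox2midGata4mid cells (adjusted p = 0.00969).

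*Rdh10* (chr1:16105774-16133734, plus strand), which acts in the direction opposite to *Dhrs3*, had its highest E13.5 epithelial values in the intermediate fraction. It was at 4.66, 3.0 and 5.21 FPKM in Gata4hi cells, at 7.50 and 6.09 FPKM in Sox2midGata4mid cells, and at 2.94, 2.62 and 3.59 FPKM in Sox2hi cells. Gata4hi and Sox2hi cells overlapped (0.37 ± 0.20, adjusted p = 0.237), whereas both Sox2midGata4mid libraries were above every library of the other groups. *Rdh10* was the only one of the 5 genes called between Sox2midGata4mid and Sox2hi cells (0.95 ± 0.22, adjusted p = 0.0497), where 5.55% of all genes tested were called, 2.54% higher and 3.01% lower. It was called in 4 of 16 alternatives and was lost without any 1 of 7 of the 8 libraries, the exception being Gata4hi replicate 2, and its adjusted p ran between 0.0264 and 0.258 over the alternatives. Gata4hi cells differed from Sox2midGata4mid cells by -0.58 ± 0.22 (adjusted p = 0.127).

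*Crabp2* (chr3:87948666-87953376, plus strand) supplied nearly all of the binding protein transcript in epithelium. Its levels were 24.1, 19.7 and 22.7 FPKM in Gata4hi cells, 37.5 and 41.8 FPKM in Sox2midGata4mid cells, and 55.1, 52.4 and 47.2 FPKM in Sox2hi cells. The groups did not overlap. The difference was -1.18 ± 0.10 against Sox2hi cells (adjusted p = 1.78e-04) and -0.81 ± 0.12 against Sox2midGata4mid cells (adjusted p = 0.00569). *Crabp1* (chr9:54764748-54773110, plus strand) was at most 1.08 FPKM in any E13.5 epithelial library, with overlapping groups, and *Crabp2* was 95.5% to 99.9% of the sum of both.

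**Figure D2:**
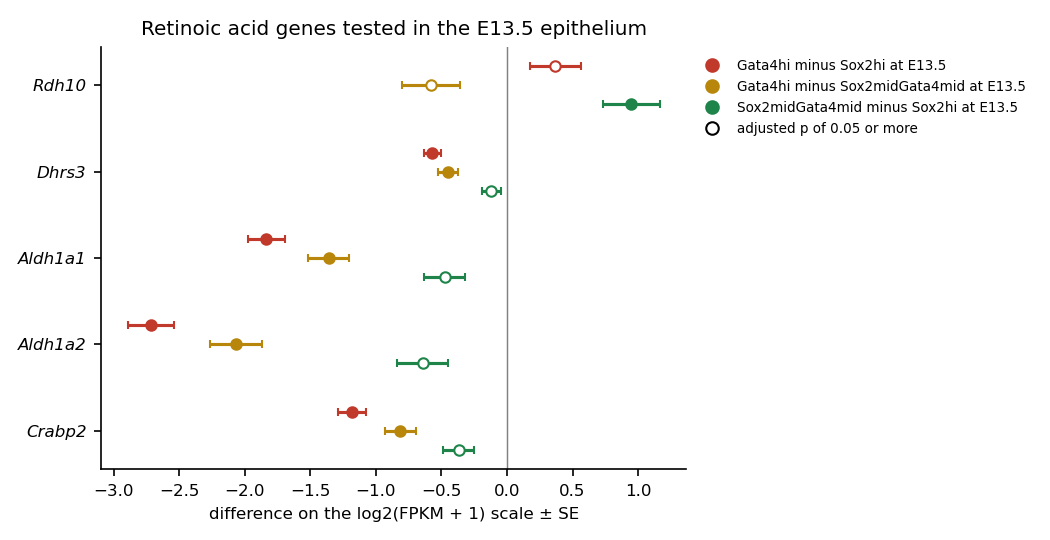
Difference ± SE on the log2(FPKM + 1) scale for the 5 genes tested in the E13.5 epithelium (Gata4hi n = 3, Sox2midGata4mid n = 2, Sox2hi n = 3). Filled points have an adjusted p below 0.05. *Dhrs3*, *Aldh1a1*, *Aldh1a2* and *Crabp2* are lower in Gata4hi cells in both of their comparisons, and *Rdh10* is higher in Sox2midGata4mid than in Sox2hi cells.

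Against Sox2midGata4mid cells, 4 of the 5 genes fell in Gata4hi cells, though for *Aldh1a2* the filter again left no other direction open. Of all genes tested 13.6% were called, 11% higher and 2.59% lower. The comparisons share the Gata4hi libraries, and the 4 genes were the same as against Sox2hi cells. Without Sox2midGata4mid replicate 2 only 2 of them passed, as *Crabp2* (adjusted p = 0.0519) and *Dhrs3* (adjusted p = 0.0578) did not. Between Sox2midGata4mid and Sox2hi cells these 4 genes differed by -0.64 (*Aldh1a2*), -0.48 (*Aldh1a1*), -0.37 (*Crabp2*) and -0.12 (*Dhrs3*), with adjusted p between 0.113 and 0.413; the value of *Dhrs3* turned to 0.01 on the TPM scale.

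The degrading enzymes were low and did not pass the filter in E13.5 epithelium, but the 2 genes ran in opposite directions. *Cyp26a1* (chr19:37697808-37701528, plus strand) was at 0, 0.0335 and 0 FPKM in Gata4hi cells, at 0.0480 and 0.229 FPKM in Sox2midGata4mid cells, and at 0.939, 1.07 and 0.725 FPKM in Sox2hi cells. *Cyp26b1* (chr6:84571414-84593908, minus strand) was at 1.04, 0.825 and 1.52 FPKM in Gata4hi cells, at 0.767 and 0.296 FPKM in Sox2midGata4mid cells, and at 0.144, 0.176 and 0.114 FPKM in Sox2hi cells. Neither gene overlapped between Gata4hi and Sox2hi cells. In the fit without a filter *Cyp26a1* was lower in Gata4hi than in Sox2hi cells (-0.92 ± 0.09, adjusted p = 0.00162) and *Cyp26b1* was higher (0.88 ± 0.16, adjusted p = 0.0178). The sum of both was 0.858 to 1.52 FPKM in Gata4hi cells and 0.839 to 1.25 FPKM in Sox2hi cells, and these ranges overlapped.

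Mesenchymal markers were read beside these values, since *Aldh1a2* is abundant in fibroblasts. The 10 fibroblast and mesenchyme markers summed to 11.04 to 23.8 FPKM in Gata4hi cells and to 12.5 to 17.4 FPKM in Sox2hi cells, against 4967 and 5946 FPKM in E13.5 fibroblasts. The ranges of Gata4hi and Sox2hi cells overlapped, so the list as a whole did not move with *Aldh1a2*. Of the 10 markers *Twist1* (0.031 to 0.113 FPKM in Gata4hi and 3.15 to 6.24 FPKM in Sox2hi cells) and *Pdgfrb* (0.071 to 0.379 FPKM in Gata4hi and 1.86 to 3.06 FPKM in Sox2hi cells) did move with it. *Pdgfra*, the marker of the fibroblast sort, ran the other way, at 0.544 to 1.34 FPKM in Gata4hi and 0.354 to 0.439 FPKM in Sox2hi cells. The part of *Twist1*- or *Pdgfrb*-expressing cells in the result was not tested. In bulk samples such as these, fewer cells of a type and less RNA per cell cannot be told apart.

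At E11.5 the same direction was seen for *Aldh1a1* and *Aldh1a2*, with 1 library per group and so no replicate check. Of the 9 genes 6 averaged 1 FPKM or more, and 3 were at least 2-fold lower and 1 at least 2-fold higher in the Gata4hi library on the log2(FPKM + 1) scale, where 8.76% of all genes were at least 2-fold apart, 3.86% lower and 4.9% higher. *Aldh1a2* was at 1.32 FPKM in Gata4hi and 5.89 FPKM in Sox2hi cells, and *Aldh1a1* was at 1.38 FPKM in Gata4hi and 4.30 FPKM in Sox2hi cells. *Rdh10* was at 2.22 FPKM in Gata4hi and 7.78 FPKM in Sox2hi cells, an order not seen at E13.5. *Cyp26b1* was the 1 gene counted as higher in the Gata4hi library, at 2.08 FPKM in Gata4hi and 0.503 FPKM in Sox2hi cells. It passed the filter only through the Gata4hi library, so no direction but higher was open to it. *Cyp26a1* was listed at 0 and 0.0642 FPKM in Gata4hi and Sox2hi cells.

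*Dhrs3* and *Crabp2* were high in both E11.5 libraries. *Dhrs3* was at 34.3 FPKM in Gata4hi and 41.1 FPKM in Sox2hi cells, and *Crabp2* was at 45.6 FPKM in Gata4hi and 57.8 FPKM in Sox2hi cells. For *Crabp2* the Gata4hi values were thus lower at E13.5 (19.7 to 24.1 FPKM) than at E11.5 (45.6 FPKM), while the Sox2hi values at E13.5 (47.2 to 55.1 FPKM) lay close under the E11.5 value (57.8 FPKM). *Crabp1* was at 1.34 FPKM in Gata4hi and 0.420 FPKM in Sox2hi cells, and *Aldh1a3* was listed at 0 and 0.0778 FPKM in Gata4hi and Sox2hi cells.

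Whether the difference between Gata4hi and Sox2hi cells itself changed with stage was tested with the E11.5 libraries assumed to vary like the E13.5 ones. None of 5 genes tested was called by limma, where 1.17% of all 13139 genes were (0.685% with a positive and 0.487% with a negative value). All 5 had an unadjusted p below 0.05, as had 1596 of the 13139 genes. The largest was *Rdh10*, whose difference was 1.81 ± 0.39 higher at E13.5 than at E11.5 (adjusted p = 0.0900), followed by *Aldh1a2* at -1.14 ± 0.35 (adjusted p = 0.217) and *Crabp2* at -0.85 ± 0.20 (adjusted p = 0.123). The liver, lung and globin transcripts of the E11.5 libraries bear on these values, and their part was not tested.

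**Figure D3:**
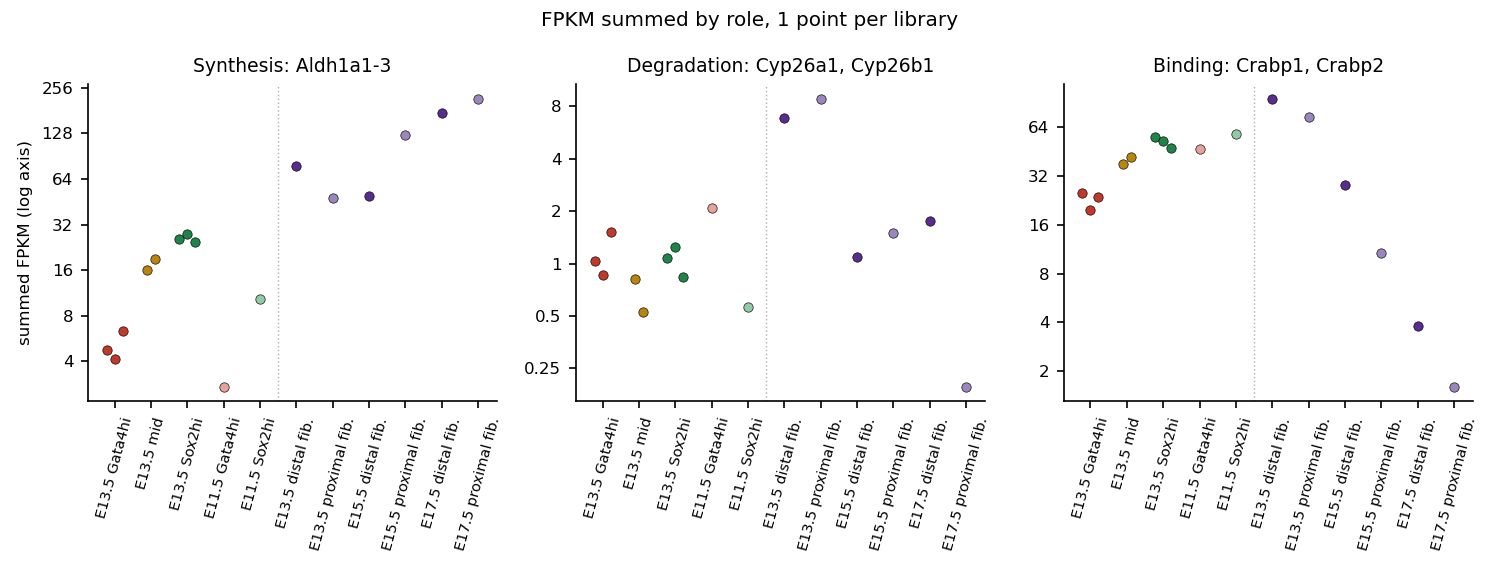
FPKM summed over *Aldh1a1*, *Aldh1a2* and *Aldh1a3* (synthesis), *Cyp26a1* and *Cyp26b1* (degradation), and *Crabp1* and *Crabp2* (binding), with 1 point per library on a log axis and a separate scale in each panel (mid, Sox2midGata4mid). The synthesis sum is 174 and 217 FPKM in E17.5 fibroblasts and 4.11 to 6.29 FPKM in E13.5 Gata4hi cells, and the binding sum falls to 3.798 and 1.60 FPKM in E17.5 fibroblasts.

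Fibroblasts at E13.5 differed from the epithelium of the same stage in nearly all of these genes. Of 8 genes tested 5 were higher and 2 lower in fibroblasts, where 53.8% of all 13502 genes tested were called, 30.5% higher and 23.3% lower. Of them *Crabp1*, *Cyp26a1* and *Cyp26b1* averaged 0.443, 0.381 and 0.610 FPKM in the E13.5 epithelium. They passed the filter only through the fibroblasts, so no direction but higher was open to them. This bears on the count and on the median that follows. The median difference was 1.58 over the 8 genes and 0.08 over all genes tested; on the TPM scale the median of all genes moved to -0.27, and all 7 calls kept their direction. The E13.5 fibroblasts are 1 distal and 1 proximal library used as 2 samples of 1 group.

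The largest difference was that of *Crabp1*, at 73.6 and 54.0 FPKM in distal and proximal fibroblasts against 0.0740 to 1.08 FPKM in the 8 epithelial libraries (5.53 ± 0.28, adjusted p = 5.38e-07). *Aldh1a2* was at 73.8 and 31.0 FPKM in distal and proximal fibroblasts against 0.179 to 8.69 FPKM in epithelium (3.54 ± 0.28, adjusted p = 8.64e-06). Both fibroblast libraries were above every epithelial library for each gene. *Rdh10* was at 17.3 and 20.9 FPKM in distal and proximal fibroblasts against 2.62 to 7.50 FPKM in epithelium (1.88 ± 0.18, adjusted p = 3.31e-05).

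Both degrading enzymes were also higher in fibroblasts. *Cyp26a1* was at 3.87 and 6.33 FPKM in distal and proximal fibroblasts against at most 1.07 FPKM in epithelium (2.203 ± 0.21, adjusted p = 2.83e-05), and *Cyp26b1* was at 2.98 and 2.51 FPKM against at most 1.52 FPKM (1.28 ± 0.20, adjusted p = 7.42e-04). Thus transcripts of *Aldh1a2*, of both degrading enzymes and of *Crabp1* were more abundant in the same sorted cells, while those of *Aldh1a1* and *Crabp2* were not. *Aldh1a3*, under the filter here, was at 2.65 and 3.15 FPKM in distal and proximal fibroblasts against at most 0.593 FPKM in epithelium.

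The remaining genes were not higher in fibroblasts. *Crabp2* was at 22.02 and 20.1 FPKM in distal and proximal fibroblasts against 19.7 to 55.1 FPKM in epithelium (-0.73 ± 0.10, adjusted p = 2.70e-04), and *Dhrs3* was at 29.3 and 41.7 FPKM against 39.3 to 63.4 FPKM (-0.58 ± 0.11, adjusted p = 0.00238); the fibroblast values were below all Sox2hi and Sox2midGata4mid libraries, and those of *Crabp2* and the proximal one of *Dhrs3* lay within the Gata4hi range. *Aldh1a1* was split between the fibroblast libraries, at 1.89 FPKM in distal and 14.2 FPKM in proximal cells, and was not called (-0.74 ± 0.47, adjusted p = 0.219). Without the proximal library it was lower in fibroblasts (-1.94, adjusted p = 1.79e-04), and without the distal library the sign turned (0.46, adjusted p = 0.0784). *Crabp2* made up 23.0% and 27.1% of the summed *Crabp* FPKM in distal and proximal fibroblasts, against 95.5% or more in epithelium.

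In fibroblasts from E13.5 to E17.5 transcripts of the binding proteins, of *Rdh10* and of the degrading enzymes fell while those of *Aldh1a3* rose. Of 9 genes tested 5 fell and 1 rose between E13.5 and E17.5, where 37.1% of all 12900 genes tested were called, 27.1% lower and 9.96% higher. *Cyp26a1* averaged 0.956 and 0.570 FPKM at E15.5 and E17.5, and *Cyp26b1* averaged 0.345 and 0.404 FPKM. Both passed the filter only through E13.5, so no direction but lower was open to them. This bears on the count and on the median that follows, which is the value of *Cyp26b1*. The median difference was -1.44 over the 9 genes and -0.31 over all genes tested, and the median of all genes was 0 on the TPM scale. Each stage has 1 distal and 1 proximal library, and the count of 6 genes depended on each of them: it was 3 without either E15.5 library, 2 without the distal E17.5 library, and 0 without either E13.5 library or without the proximal E17.5 library.

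*Crabp1* fell furthest. In the order of the 3 stages, it was at 73.6, 22.3 and 1.13 FPKM in distal fibroblasts, and at 54.0, 8.84 and 0.477 FPKM in proximal fibroblasts. The decline was thus present in both regions, and the E17.5 minus E13.5 difference was -5.18 ± 0.24 (adjusted p = 0.00268). *Crabp2* was at 22.02, 5.85 and 2.67 FPKM in distal and at 20.1, 1.93 and 1.12 FPKM in proximal fibroblasts at the same stages (-2.98 ± 0.30, adjusted p = 0.00620). Both genes were higher in distal than in proximal fibroblasts at each of the 3 stages.

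The degrading enzymes had their highest fibroblast values at E13.5. *Cyp26a1* was at 3.87, 0.672 and 1.09 FPKM in distal and at 6.33, 1.24 and 0.0521 FPKM in proximal fibroblasts in the order of stages (-2.01 ± 0.48, adjusted p = 0.0329; 0.0624 on the TPM scale). *Cyp26b1* was at 2.98, 0.425 and 0.664 FPKM in distal and at 2.51, 0.266 and 0.144 FPKM in proximal fibroblasts (-1.44 ± 0.35, adjusted p = 0.0337; 0.0670 on the TPM scale). All 4 later values of each gene lay below both of its E13.5 values.

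Of the synthesizing enzymes only *Aldh1a3* was called. It was at 2.65, 4.60 and 16.2 FPKM in distal and at 3.15, 18.2 and 24.2 FPKM in proximal fibroblasts in the order of stages (2.42 ± 0.41, adjusted p = 0.0144). *Aldh1a2* was at 73.8, 42.9 and 132 FPKM in distal and at 31.0, 107 and 174 FPKM in proximal fibroblasts, and its difference of 1.64 ± 0.60 did not pass (adjusted p = 0.0918). *Aldh1a2* thus had its highest value of each region at E17.5, but dipped at E15.5 in distal fibroblasts only.

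*Aldh1a1* had its lowest value of each region at E15.5. It was at 1.89, 1.78 and 25.8 FPKM in distal and at 14.2, 0.918 and 18.0 FPKM in proximal fibroblasts (1.77 ± 0.79, adjusted p = 0.142). The sum of the 3 enzymes was 78.4, 49.3 and 174 FPKM in distal and 48.3, 126 and 217 FPKM in proximal fibroblasts, and *Aldh1a2* was 64.1% to 94.2% of it in every fibroblast library.

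*Rdh10* was at 17.3, 19.3 and 8.502 FPKM in distal and at 20.9, 13.8 and 3.69 FPKM in proximal fibroblasts in the order of stages (-1.58 ± 0.32, adjusted p = 0.0217). *Dhrs3* was at 29.3, 30.9 and 58.8 FPKM in distal and at 41.7, 21.8 and 52.4 FPKM in proximal fibroblasts, and was not called on the FPKM scale (0.65 ± 0.26, adjusted p = 0.108) but was on the TPM scale (1.02, adjusted p = 0.0387). The enzyme pair thus ended in opposite orders, with *Rdh10* lowest and *Dhrs3* highest at E17.5 in both regions.

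Markers of other cell types were read beside the series of stages. The 10 fibroblast and mesenchyme markers, led by collagens, summed to 4967 and 5946 FPKM at E13.5, to 11381 and 16193 FPKM at E15.5 and to 23641 and 31965 FPKM at E17.5 in distal and proximal fibroblasts. The 8 mesothelial markers, of interest because mesothelium makes *Aldh1a2* in other organs, summed to 7.56 and 4.32 FPKM at E13.5 and to 0.597 and 0.180 FPKM at E17.5 in distal and proximal fibroblasts, with *Msln* listed at 0 in all 6 libraries, while *Aldh1a2* was higher at E17.5. The 6 smooth muscle markers summed to 806 and 1110 FPKM at E13.5 in distal and proximal fibroblasts. At E15.5 they summed to 467 and 848 FPKM, and at E17.5 to 886 and 1499 FPKM, in the same order. Spleen mesenchyme markers ranged from 3.58 to 9.17 FPKM at E13.5 and were at most 0.361 FPKM at E17.5. The 6 endothelial markers summed to 1.57 and 1.47 FPKM at E13.5, to 2.43 and 1.35 FPKM at E15.5 and to 13.6 and 7.57 FPKM at E17.5 in distal and proximal fibroblasts. Their sum was thus highest at the stage at which *Aldh1a2* and *Aldh1a3* were highest. At E17.5, however, 5 of the 6 were under 1 FPKM in both libraries, 2 of them at 0. The sum there came mostly from the remaining marker. The part of such cells in the result was not tested.

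**Figure D4:**
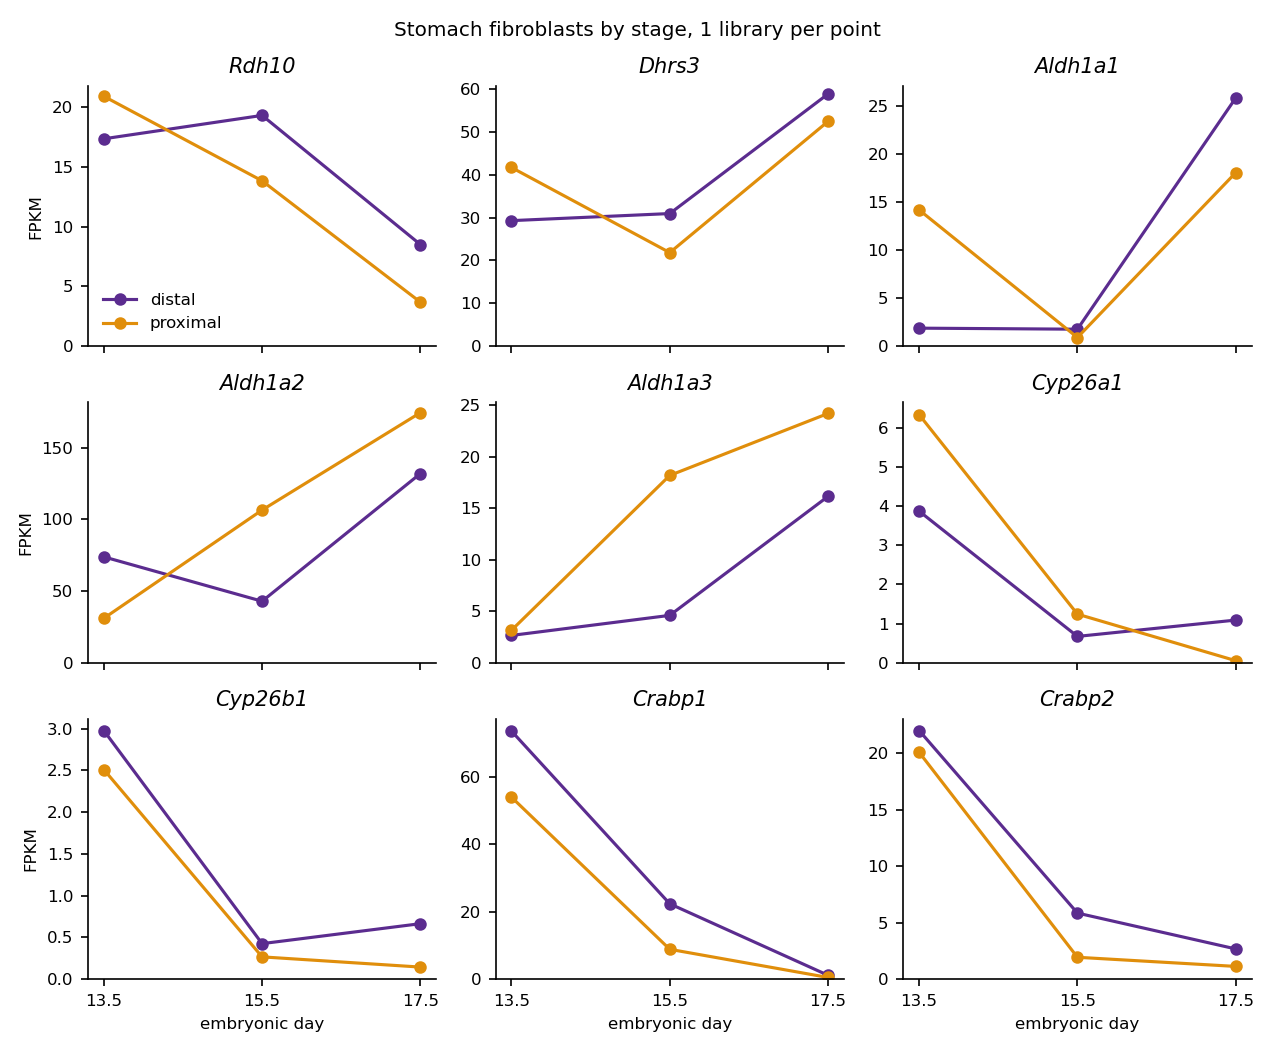
FPKM of each of the 9 genes in distal and proximal fibroblasts by embryonic day, 1 library per point, with a separate linear axis in each panel. *Crabp1*, *Crabp2*, *Cyp26a1* and *Cyp26b1* are highest at E13.5, *Aldh1a2* and *Aldh1a3* at E17.5, and the distal and proximal lines cross for *Aldh1a2* between E13.5 and E15.5.

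Between distal and proximal fibroblasts, with the 3 stages as pairs, no gene was called. This held for all 9 genes and for all 12900 genes tested (0%), whereas 1287 genes had an unadjusted p below 0.05 with limma, among them *Crabp1* and *Crabp2*. The difference was 0.74 ± 0.20 for *Crabp1* (adjusted p = 0.390) and 0.71 ± 0.24 for *Crabp2* (adjusted p = 0.465), each higher in distal cells at 3 of 3 stages. *Aldh1a3* was lower in distal cells at 3 of 3 stages (-0.84 ± 0.33, adjusted p = 0.519). *Aldh1a2* was higher in distal cells at E13.5 and lower at E15.5 and E17.5 (-0.16 ± 0.49, adjusted p = 0.939), and *Aldh1a1* was lower in distal cells at E13.5 and higher at both later stages (-0.45 ± 0.64, adjusted p = 0.842). The SE of 0.20 to 0.64 over the 9 genes limits what this design could show.

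The difference between reporter fractions of the epithelium (Gata4hi minus Sox2hi cells at E13.5) was then set against the regional difference of the fibroblasts (distal minus proximal). Of 8 genes tested 2 differed between the compartments, where 14.8% of all 13666 genes tested were called, 10.1% with a positive and 4.75% with a negative value. *Crabp2* differed by -1.90 ± 0.25 (adjusted p = 8.45e-04), being lower in Gata4hi than in Sox2hi epithelium and higher in distal than in proximal fibroblasts. *Aldh1a2* differed by -2.56 ± 0.51 (adjusted p = 0.00847), being lower in Gata4hi than in Sox2hi epithelium in 3 of 3 libraries, while among fibroblasts it was higher in distal cells at E13.5 and lower in distal cells at E15.5 and E17.5. Both were called in all 20 alternatives, and without either E13.5 fibroblast library 5 of the 8 genes were called. *Aldh1a1* (-1.38 ± 0.65, adjusted p = 0.207) and *Dhrs3* (-0.62 ± 0.21, adjusted p = 0.0763) did not pass.

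**Figure D5:**
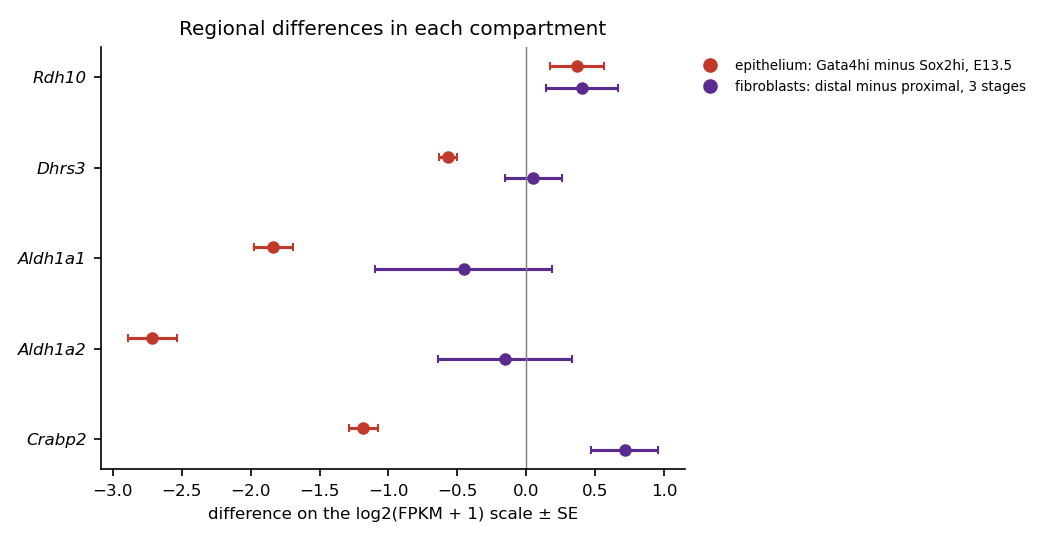
Difference ± SE on the log2(FPKM + 1) scale between Gata4hi and Sox2hi epithelium at E13.5 (n = 3 each) and between distal and proximal fibroblasts over 3 stages (n = 3 each), for the 5 genes tested in both. *Crabp2* lies on opposite sides of 0 in the 2 compartments, and *Aldh1a2* is at -2.71 in epithelium and -0.16 in fibroblasts.

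Of 11 receptors and cofactors tested in the E13.5 epithelium, 4 were lower, none was higher and 7 were not called in Gata4hi relative to Sox2hi cells, where 6.7% of all genes tested were called lower and 14.9% higher. The median difference was -0.10 over the list and 0.08 over all genes. *Rarg*, a receptor abundant in skin, was at 16.2, 17.9 and 16.2 FPKM in Gata4hi cells and at 41.5, 35.7 and 39.6 FPKM in Sox2hi cells (-1.17 ± 0.09, adjusted p = 1.12e-04). *Rarb*, whose promoter repeat is printed above and which is itself induced by retinoic acid, was at 15.99, 15.2 and 17.8 FPKM in Gata4hi cells, at 30.8 and 34.6 FPKM in Sox2midGata4mid cells, and at 33.2, 31.3 and 34.7 FPKM in Sox2hi cells. Sox2midGata4mid and Sox2hi cells overlapped for *Rarb*, and Gata4hi cells were below both (-0.97 ± 0.09 against Sox2hi cells, adjusted p = 2.54e-04). The coregulator gene *Nrip1* was lower in Gata4hi than in Sox2hi cells as well (-0.51 ± 0.10, adjusted p = 0.0105).

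Other known targets did not move as one. Of 12 tested, 2 were higher, 2 lower and 8 not called in Gata4hi relative to Sox2hi cells (median -0.26), beside 14.9% higher and 6.7% lower over all genes; the lower ones were *Rarb* and *Nrip1*, which are also counted among the receptors and cofactors. *Meis2*, a homeobox gene, was at 135.2, 124 and 94.3 FPKM in Gata4hi cells and at 34.1, 29.6 and 21.4 FPKM in Sox2hi cells (2.03 ± 0.19, adjusted p = 2.41e-04), and *Tgm2*, a transglutaminase gene, was at 61.0, 68.2 and 82.8 FPKM in Gata4hi cells and at 18.9, 24.9 and 14.2 FPKM in Sox2hi cells (1.84 ± 0.21, adjusted p = 6.86e-04). Their direction was thus opposite to that of *Rarb* and of *Cyp26a1*.

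Of the other enzymes of retinol and retinal, 8 of 22 were tested, and 4 were higher and none lower in Gata4hi than in Sox2hi cells (median 0.38), beside 14.9% higher and 6.7% lower over all genes on the FPKM scale, whose calls lean to the higher side. They were the retinoid-metabolizing cytochrome gene *Cyp2s1* (1.65, adjusted p = 3.08e-04), *Dhrs4* (0.58, adjusted p = 0.0203), *Rdh11* (0.43, adjusted p = 0.0243) and *Adh5* (0.32, adjusted p = 0.0200). Of 7 transport and storage genes tested only *Ttr* was called, at 57.3, 59.1 and 52.9 FPKM in Gata4hi cells and at 1.80, 1.94 and 1.66 FPKM in Sox2hi cells (4.36 ± 0.19, adjusted p = 1.02e-05). Transthyretin carries the retinol-binding protein in blood and is made by liver; 3 liver markers summed to 15.7 to 21.7 FPKM in Gata4hi and 0.192 to 0.991 FPKM in Sox2hi cells, and their part was not tested.

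In fibroblasts between E13.5 and E17.5, 7 of 13 targets tested fell and 2 rose (median -0.84, against -0.31 over all genes), beside 27.1% of all genes that fell and 9.96% that rose. The number of all genes called was 4780, and it was between 0 and 1528 with 1 library left out, being 0 without either E13.5 library or the proximal E17.5 library. *Rarb* fell with *Crabp1* and *Cyp26a1* (-0.90 ± 0.17, adjusted p = 0.0197), and *Meis2* fell as well (-1.42 ± 0.17, adjusted p = 0.00764), while *Tgm2* (2.19 ± 0.13, adjusted p = 0.00341) and the receptor gene *Rarg* (1.04 ± 0.15, adjusted p = 0.00993) rose. Between distal and proximal fibroblasts none of the 35 other pathway genes tested was called.

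The genes whose pattern was most like that of each gene were sought over the 16 libraries by Pearson's r of log2(FPKM + 1), among 13175 genes that averaged 1 FPKM or more. *Aldh1a1* and *Dhrs3* were each other's nearest gene (r = 0.92), and both had *Hpgd* next (r = 0.91 and 0.90). *Aldh1a2* was closest to the matrix genes *Sparc*, *Col5a1* and *Ltbp3* (r = 0.98 each), *Crabp1* to *Fabp7* (r = 0.97), and *Crabp2* to *Rcc2* (r = 0.98). *Aldh1a3* was closest to *Kcne4* (r = 0.99), *Rdh10* to *Impact* (r = 0.93) and *Cyp26a1* to *Kirrel3* (r = 0.94). The libraries share the split between epithelium and fibroblasts and the series of stages, and these values describe that shared pattern. *Cyp26b1*, with a mean below 1 FPKM, was not compared.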

How the data were processed

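The authors prepared stranded polyA libraries and sequenced them as single reads; the submitters' processing notes name cutadapt 1.16, HISAT2 2.1.0, Cufflinks 2.2.1 and the mm10 (GRCm38) build. The deposited values are FPKM for each gene and library; strand setting and normalization mode are not given in the sources used here. Of 53773 entries, 1 was empty and 61 repeated a gene identifier, and 27 symbols turned into dates were restored from the identifier. The file holds no counts, so total depth is unknown and no detection limit is given.

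Genes averaging 1 FPKM or more in the libraries fitted were tested with limma 3.58.1 (R 4.3.3) on log2(FPKM + 1) with a variance trend and Benjamini-Hochberg adjustment over all genes tested. A fold change on this scale understates the change of low genes. The epithelial fit had 3 group means, the fibroblast fit region plus stage, the compartment fit both of these together, and the other fits one mean for each group, with E13.5 fibroblasts as 1 group. The tests were checked on simulated data. Figures and summaries were made in Python 3.11.15 with pandas 2.3.3. The members, the lists and the tests were chosen with earlier results of these data known. All 9 genes are named; of other pathway genes, up to 4 per list that were called between Gata4hi and Sox2hi cells or between fibroblast regions; for likeness, up to 3 genes, with predicted genes passed over. One result of the pathway lists is counted but not reported here. *Rarb* was chosen for display with its values known.

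Replicate numbers are shared between the E13.5 groups. The submitted names of replicate 3 of Sox2hi and Gata4hi are in the style of the E11.5 and fibroblast libraries. The other E13.5 epithelial libraries, all Sox2midGata4mid ones included, are named in another style. What the styles stand for is not stated. After group means were taken off, Gata4hi and Sox2hi libraries that share a number correlated at r = 0.113, 0.119 and 0.163. Each was above the limit of 0.1 set for treating them as pairs, a pairing no source states. Those of Sox2midGata4mid, with 2 numbers, were not treated so. By shared number they correlated at r = 0.157 and 0.132 with Gata4hi and at 0.0971 and 0.0854 with Sox2hi libraries. The reported fits hold no replicate block, and the block was fitted as an alternative. Alternatives also covered the pseudocount, the filter, the TPM scale (FPKM rescaled to 1 sum in every library), quantile normalization, the trend, the samples in the fit and each library left out.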

Additional observations from a re-analysis of the deposited data

Results flagged for a closer look

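For 2 genes the difference between epithelial reporter fractions was not the same as that between fibroblast regions, by a test of the one against the other. The Gata4hi minus Sox2hi difference of the epithelium was lower than the distal minus proximal difference of the fibroblasts by 1.90 ± 0.25 on the log2(FPKM + 1) scale for *Crabp2* (-1.90, limma adjusted p = 8.45e-04) and by 2.56 ± 0.51 for *Aldh1a2* (-2.56, adjusted p = 0.00847). For *Crabp2* the Gata4hi libraries were lower than the Sox2hi libraries in 3 of 3 and the distal fibroblasts higher than the proximal ones at 3 of 3 stages. For *Aldh1a2* the order of the fibroblast regions changed with stage. The epithelial libraries are of E13.5 alone and the fibroblast libraries of 3 stages, so compartment and stage are not fully separated. No group had 4 or more libraries, so single libraries were not tested as outliers.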

How the results depend on the processing

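Tests of the 9 genes gave 54 results, and over their alternatives 754 values kept direction and side of the threshold, 48 lost the call, 13 gained it and 26 changed sign; none of the sign changes was of a called value. Counts of the 9 genes called stayed within 1.5 times of the reported count in 106 of 128 alternatives. The 4 genes lower in Gata4hi than in Sox2hi cells were called in every alternative in which they were tested. Over each library left out, the count was 4 for Gata4hi against Sox2hi, 2 to 4 for Gata4hi against Sox2midGata4mid, 0 to 1 for Sox2midGata4mid against Sox2hi, 7 to 8 for fibroblasts against epithelium, 0 for distal against proximal fibroblasts, 0 to 3 for E17.5 against E13.5 (6 as reported), 2 to 5 for the compartments and 0 for the stages of the epithelium. For Sox2midGata4mid against Sox2hi the single call, *Rdh10*, was also lost (0) with a mean of at least 5 FPKM, quantile normalization, no trend, only the 2 groups and replicates 1 and 2 only; with no filter *Cyp26a1* was called in its place. For E17.5 against E13.5 the count was 3 with no filter. The cause was not tested, beyond the fewer libraries or genes each fit holds.

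Fitted with the replicate block, 4, 5 and 1 genes were called in the 3 epithelial comparisons against 4, 4 and 1 as reported, the difference being *Rdh10* in Gata4hi against Sox2midGata4mid cells (-0.69, adjusted p = 0.0437), and 2884, 1533 and 510 of all genes against 2834, 1784 and 728; the block changed no other call of the 9 genes.

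Values that changed sign, none of them called, were *Dhrs3* in Sox2midGata4mid against Sox2hi (0.014, TPM scale) and *Cyp26a1* in distal against proximal fibroblasts (0.49, pseudocount 0.1; 0.15, TPM scale). Over each library left out, *Aldh1a1* in fibroblasts against epithelium ran from -1.94 to 0.46, *Rdh10* between compartments from -0.37 to 0.27, and in distal against proximal fibroblasts *Aldh1a2* from -0.85 to 0.41, *Cyp26a1* from -0.51 to 0.28, *Aldh1a1* from -0.95 to 0.51 and *Dhrs3* from -0.17 to 0.32. In that comparison *Cyp26a1* (0.28) and *Aldh1a1* (0.51) turned without the E13.5 stage, *Aldh1a2* (0.41), *Cyp26a1* (0.20) and *Dhrs3* (-0.17) without E15.5, and *Dhrs3* (-0.0054) without E17.5.

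Scaling set the balance of calls over all genes: for Gata4hi against Sox2hi 1955 were higher and 879 lower, against 1236 and 1359 on the TPM scale and 1297 and 1180 after quantile normalization. The same splits were 1444 and 340, 398 and 842, and 519 and 487 for Gata4hi against Sox2midGata4mid, 4117 and 3143, 2270 and 5369, and 3158 and 3632 for fibroblasts against epithelium, and 1285 and 3495, 2070 and 1599, and 1738 and 2078 for E17.5 against E13.5. For Sox2midGata4mid against Sox2hi they were 333 and 395 as reported and 588 and 286 on the TPM scale. Counts over all genes moved by more than 1.5 times for E17.5 against E13.5 (4780 as reported, 2973 with no filter, 0 to 1528 with a library left out). They also did so for Gata4hi against Sox2midGata4mid (1784, 1006 after quantile normalization, 1100 with only the 2 groups, 516 to 1781 with a library left out) and for Sox2midGata4mid against Sox2hi (728, 269 with only the 2 groups, 311 with replicates 1 and 2 only, 225 to 608 with a library left out). For the stages of the epithelium, 154 were called as reported, 60 with pseudocount 0.1, 949 with no filter, 83 with a mean of at least 5 FPKM and 59 to 172 with a library left out. For the compartments the split was 1378 positive and 649 negative, against 848 and 1061 on the TPM scale and 954 and 864 after quantile normalization.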
